A study of Mus musculus with 12 samples.

Results

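AP-1 is a family of transcription factors that bind DNA as pairs, and its FOS, JUN and ATF members were followed here across 12 RNA-Seq libraries of mouse keratinocytes. The members were the 8 genes *Fos*, *Fosb*, *Fosl1*, *Fosl2*, *Jun*, *Junb*, *Jund* and *Atf3*, found by gene name among the 21947 loci of the count table. Each of the 8 was found in 1 row. Keratinocytes, the main cells of the epidermis, had been isolated from newborn BALB/c mice and differentiated by raising calcium from 0.05 mM to 0.12 mM. Cells were transfected with 75 pmol of siRNA, either a pool that targets *Sbsn* (siSbsn) or one that targets no gene (siControl), and harvested for RNA after 48 hours. By the labels, batch 1 was made of 2 siSbsn, 2 siControl and 2 no siRNA libraries and batch 2 of 3 siSbsn and 3 siControl libraries. By the methods conditions were run in triplicates in well plates, but the sources used here do not tie a library to a culture or an animal, so p-values measure only the spread between these libraries.

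FOS proteins do not pair with each other and need a JUN partner, while JUN proteins can also pair among themselves. Their genes are classic targets of growth factor, stress and MAP kinase signals, and *Fos*, *Jun*, *Junb* and *Atf3* are immediate early genes, which are transcribed within minutes of a stimulus. In epidermis, AP-1 sites lie in the control regions of differentiation genes such as involucrin and loricrin and of genes of proteases and growth factors.

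The part of these proteins that touches DNA is the basic region, and its coding sequence is printed to show how alike the 8 genes are in these bases. The stretches hold 42 bases (14 codons), were read from the GENCODE transcripts of mm10, and are given 5′ to 3′ with capitals for the 19 bases that are identical in all 8 members.
Fos: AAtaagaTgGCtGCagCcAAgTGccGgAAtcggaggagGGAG
Fosb: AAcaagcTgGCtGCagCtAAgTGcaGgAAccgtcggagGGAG
Fosl1: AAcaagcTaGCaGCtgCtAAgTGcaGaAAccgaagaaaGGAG
Fosl2: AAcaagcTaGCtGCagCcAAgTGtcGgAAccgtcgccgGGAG
Jun: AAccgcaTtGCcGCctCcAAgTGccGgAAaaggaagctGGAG
Junb: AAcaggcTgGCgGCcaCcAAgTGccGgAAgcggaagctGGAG
Jund: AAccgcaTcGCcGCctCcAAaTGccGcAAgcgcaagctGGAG
Atf3: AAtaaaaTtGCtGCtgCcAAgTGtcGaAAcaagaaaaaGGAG
The *Fos* stretch lies at chr12:85475637-85475678 (plus strand) and the *Jun* stretch at chr4:95050438-95050479 (minus strand). Of the 42 bases, *Fosb* shared 35 with *Fos*, *Fosl2* shared 33 and *Fosl1* shared 30. *Jund* shared 36 with *Jun* and *Junb* shared 34. These counts are of bases and include differences that leave the amino acid the same, so they do not measure how alike the proteins are. By bases the stretches did not sort fully by subfamily, since *Junb* shared 32 with *Fos*, more than *Fosl1* did. *Jun* shared 29 with *Fos* and *Jund* shared 27, both fewer than any FOS gene. The FOS genes shared 24 to 29 with *Jun*, fewer than *Jund* and *Junb* did. *Atf3* shared 31 with *Fos* and 28 with *Jun*. The stretch fell in exon 3 of 4 in all 4 FOS genes and in *Atf3*, and in the single exon of each JUN gene.

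The promoters of 7 members were found in the RefSeq table of GRCm38.p6, and the 250 bases before each start were searched on both strands for 3 motifs. The AP-1 site TGACTCA was in none of the 7, and in 4.46% of all 32851 promoters. The site TGACATCA was in *Jun*, and in 2.93% of all promoters. The core TGACGT of the cyclic AMP response element was in *Fos* and *Atf3*, and in 6.47% of all promoters. A match describes letters and not binding. The 3 windows are printed 5′ to 3′ on the strand of the gene, with the match in capitals, because these are promoters of members whose levels are compared below.
Jun, chr4:95052236-95052291, minus strand: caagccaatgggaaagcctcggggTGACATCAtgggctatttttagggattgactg
Fos, chr12:85473800-85473853, plus strand: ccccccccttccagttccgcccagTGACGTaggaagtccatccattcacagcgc
Atf3, chr1:191183334-191183365, minus strand: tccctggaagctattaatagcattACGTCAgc
The *Atf3* window holds this core on the opposite strand, so its capitals read as the reverse complement.

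Levels are given as CPM, the count relative to the size of the library after TMM scaling. Total counts lay between 27934836 and 49553923 per library, and all 10 keratinocyte markers were present in every library. *Sbsn*, the gene targeted by the siRNA, had 124, 125 and 121 CPM in the siSbsn libraries of batch 2, against 371, 332 and 459 CPM in siControl. The 4 control libraries of batch 1 held 1697 and 1231 CPM (no siRNA) and 1189 and 1356 CPM (siControl), against 1965 CPM in the library labelled siSbsn batch 1 replicate 1 and 696 CPM in siSbsn batch 1 replicate 2. The level of *Sbsn* in the first of these 2 siSbsn libraries therefore goes against its label, and results are also given without it. Fibroblast markers (6 genes) summed to 928 CPM in no siRNA batch 1 replicate 1 and to 1163 CPM in the library labelled siSbsn batch 1 replicate 1, and to between 358 and 488 CPM in the other 10 libraries. Of the keratinocyte markers, *Krt1* was at 214 and 335 CPM in these libraries and between 26.4 and 61.4 CPM in the other 10. The sum of all 10 keratinocyte markers did not set them apart, at 49110 and 52560 CPM against 31050 to 58120 CPM. Leukocyte markers summed to 10.1 and 9.58 CPM in these libraries and to at most 3.64 CPM in the others. *Lyz2* made up most of the 2 higher sums, at 7.075 and 6.347 CPM, and *Cd74* and *Cd3e* were highest in siSbsn batch 1 replicate 2. *Cd207*, the marker of Langerhans cells, was at 0 in all 12. Endothelial and muscle markers summed to at most 3.28 and 5.8 CPM, and melanocyte markers to between 697 and 1029 CPM. Another library, siControl batch 1 replicate 1, differed most from the rest in the trend of its counts on gene length. At the transcript length of *Fosl2*, the longest member, its fitted deviation from the mean of the 12 libraries was -0.60 on the log2 scale, and at that of *Fos* it was 0.36. In batch 2, siControl batch 2 replicate 3 departed in the same direction by less, at -0.074 and 0.061. The other libraries of batch 2 lay between 0.090 and 0.157 for *Fosl2* and between -0.114 and -0.059 for *Fos*. Values corrected for gene length have such a trend removed from every library.

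For 6 members the row held 1 gene and levels could be compared per kilobase of the longest annotated transcript. *Jund*, *Jun* and *Fosl2* had the highest levels, with medians over the 12 libraries of 113, 112 and 94.1 CPM per kb. *Jund* ranged from 84.2 to 303, *Jun* from 76.0 to 136 and *Fosl2* from 40.1 to 106 CPM per kb, so these neighbours overlapped. *Jund* was first in 5 of the 6 libraries of batch 1 and *Jun* was first in all 6 of batch 2. The place of *Jund* depends on its length, since its row spans 2878 bases and its annotated transcript 1668. Per kilobase of the row its median was 65.3 CPM (48.8 to 176), below the medians of *Jun* and *Fosl2* and above the *Atf3* range. *Atf3* followed with a median of 18.0 CPM per kb (5.84 to 26.5), then *Fos* with 1.81 (1.20 to 3.48) and *Fosb* with 0.141 (0.0978 to 0.222). The ranges of these 3 genes overlapped neither each other nor the first 3. *Junb* and *Fosl1* were left out of this order, because their rows also count other genes.

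**Figure D1:**
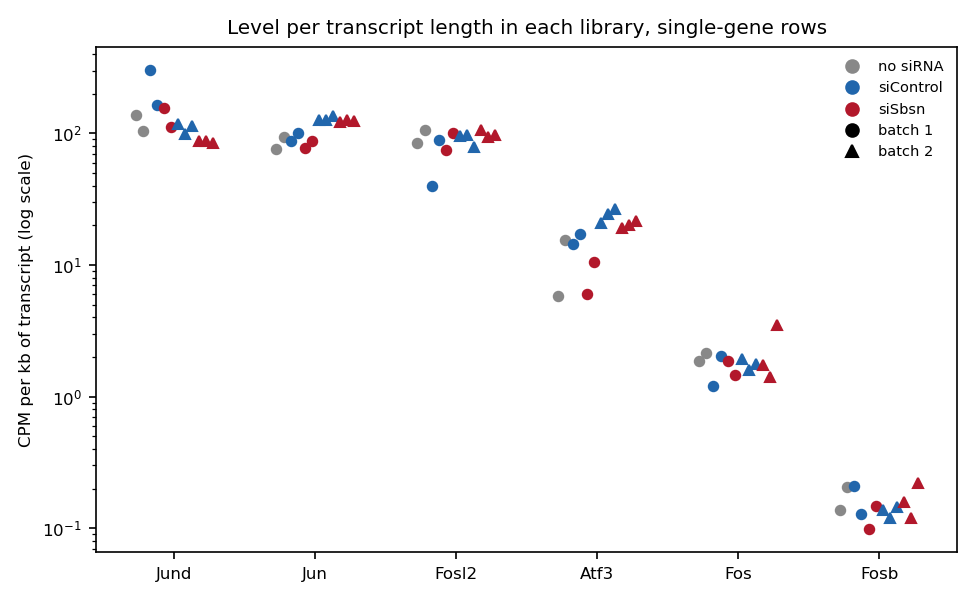
CPM per kilobase of transcript (log scale) in each of the 12 libraries for the 6 AP-1 members whose row holds 1 gene, with colour for treatment and marker shape for batch. *Jund*, *Jun* and *Fosl2* overlap near 100 CPM per kb, and *Atf3*, *Fos* and *Fosb* lie below them without overlap, with medians of 18.0, 1.81 and 0.141.

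Between siSbsn and siControl over both batches, 0 of the 8 members were called (quasi-likelihood test of edgeR on treatment and batch, absolute log2-fold change over 0.5 and q under 0.05), and 0% of the 12857 loci tested were. *Fosl1*, *Jund*, *Atf3* and *Junb* had the largest log2-fold changes, all lower in siSbsn, at -0.60, -0.53, -0.51 and -0.35. These 4 had unadjusted p-values under 0.05, against 9.49% of all loci with such a p and a lower value in siSbsn, and each had q = 0.254 from edgeR. The other 4 members lay between -0.11 and 0.26. With the library labelled siSbsn batch 1 replicate 1 left out, *Jund* was at -0.55, *Fosl1* at -0.47, *Atf3* at -0.34 and *Junb* at -0.33, and the other 4 lay between -0.062 and 0.30. The median over the 8 members was -0.23, and over all loci tested it was 0.0055. The Wald test of DESeq2, which the study itself applied, called 1 member, *Fosl1* (log2-fold change -0.60, q = 0.034), and 0.747% of the loci that received a q-value. Its q-values were 0.0654 for *Junb*, 0.0945 for *Jund* and 0.117 for *Atf3*. In bulk RNA, fewer cells that express a gene and less of its RNA per cell cannot be told apart.

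**Figure D2:**
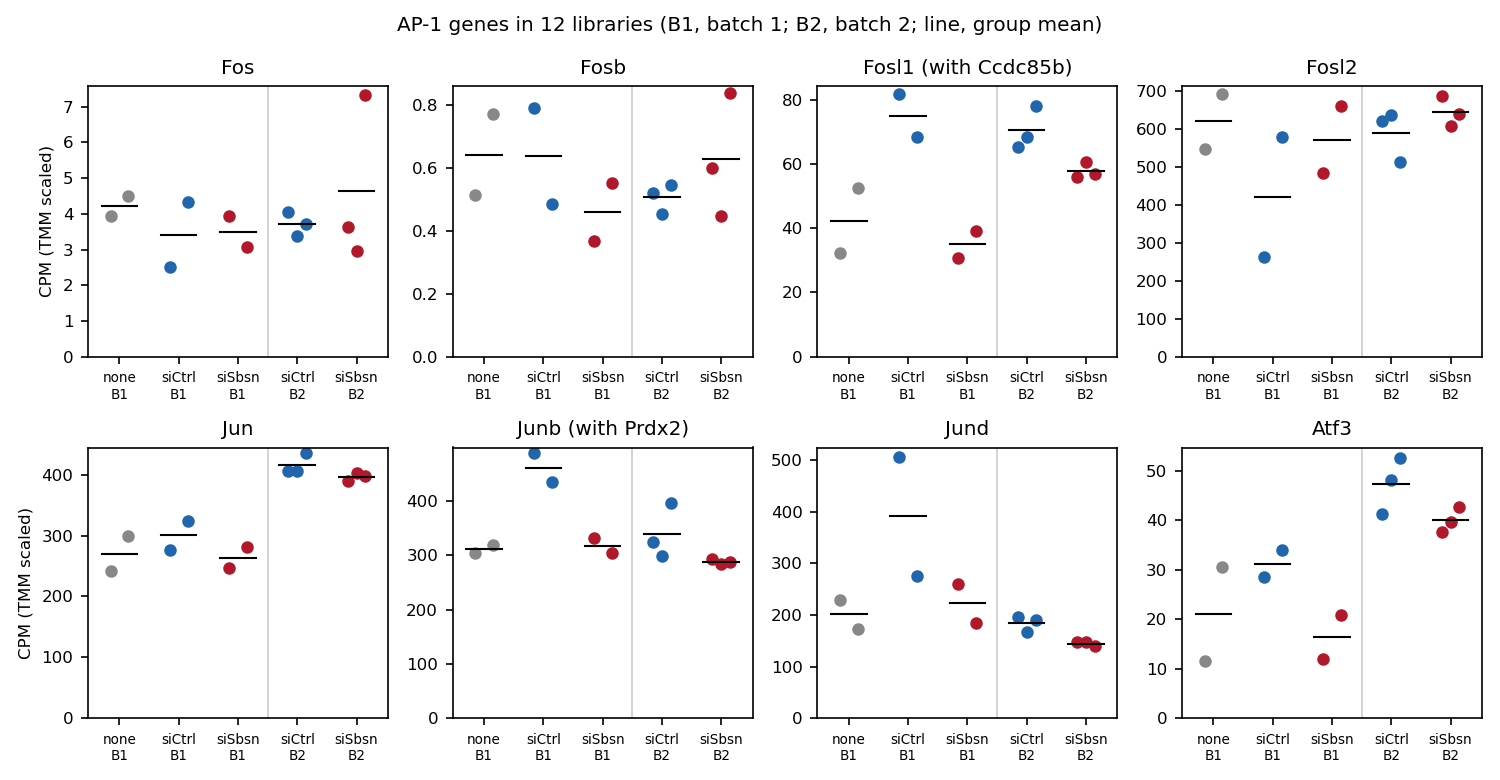
CPM of the 8 AP-1 members in each library by treatment and batch, on linear axes that start at 0 and differ between genes; the line is the group mean. *Fosl1*, *Junb* and *Jund* are lower in every siSbsn library than in every siControl library of the same batch, as are 4.22% of the loci tested. *Fos*, *Fosb* and *Fosl2* overlap in both batches.

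*Fosl1* encodes FRA1, a FOS protein without the strong activation domain of *Fos* that is induced in wounded and migrating keratinocytes. It had 81.7 and 68.2 CPM in siControl of batch 1, against 30.8 CPM in the library labelled siSbsn batch 1 replicate 1 and 39.1 CPM in siSbsn batch 1 replicate 2. The siControl libraries of batch 2 held 65.2, 68.5 and 78.0 CPM, and its siSbsn libraries held 56.0, 60.6 and 56.9 CPM. Every siSbsn library lay below every siControl library of its batch, as was so for 4.22% of the loci tested. The log2-fold change over both batches was -0.60 ± 0.16 (SE, unadjusted p = 0.00285, edgeR q = 0.254). An exact permutation test (two-sided, labels exchanged only within a batch) gave p = 0.0167, the smallest possible with these groups. Any locus whose groups separate in this way in both batches reaches that p, so it adds nothing to the separation. Leaving out the library labelled siSbsn batch 1 replicate 1 gave -0.47 (edgeR q = 0.384). The row lies at chr19:5447698-5457563 and counts *Fosl1* (plus strand) together with *Ccdc85b*, a gene on the opposite strand. The sources used here do not give whether strand entered the counting, so the 2 genes cannot be told apart. After correction for gene length the value was -0.70 at the length of the *Ccdc85b* transcript (4715 bases) and -0.45 at that of the *Fosl1* transcript (1864 bases).

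*Fosl2*, which encodes FRA2, was, per kilobase, the most abundant FOS gene with a row of its own. In batch 1 it was at 262 and 581 CPM in siControl, at 484 CPM in the library labelled siSbsn batch 1 replicate 1 and at 660 CPM in siSbsn batch 1 replicate 2. The siControl libraries of batch 2 held 621, 638 and 514 CPM, and its siSbsn libraries held 688, 608 and 641 CPM. The groups overlapped in both batches, and the lowest of the 12 values was that of siControl batch 1 replicate 1. The log2-fold change of 0.26 ± 0.19 (SE, edgeR q = 0.392) was 0.085 without that library and 0.082 after correction for gene length. The gene lies at chr5:32136472-32157839 on the plus strand, and its transcript of 6537 bases is the longest among the members.

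*Fos*, the founding member and a target of growth factor signals, was low, with 70 to 280 counts per library. It ranged from 2.52 to 4.49 CPM in 11 libraries and was at 7.33 CPM in siSbsn batch 2 replicate 6. Its log2-fold change of 0.22 ± 0.25 (SE, edgeR q = 0.580) turned to -0.071 without that library. *Fosb*, a close relative of *Fos*, had 12 to 32 counts per library, between 0.370 and 0.838 CPM, and a log2-fold change of 0.044 ± 0.26 (SE, edgeR q = 0.920). The siSbsn and siControl libraries overlapped in both batches for both genes, and the few counts of *Fosb* limit its precision. *Fos* lies at chr12:85473901-85477270 (plus strand, 2108 bases of transcript) and *Fosb* at chr7:19302696-19310045 (minus strand, 3782 bases).

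*Jund*, the JUN gene that is expressed at a steady level in many resting cells, had 506 and 276 CPM in siControl of batch 1, against 259 CPM in the library labelled siSbsn batch 1 replicate 1 and 185 CPM in siSbsn batch 1 replicate 2. The siControl libraries of batch 2 held 197, 166 and 191 CPM, and its siSbsn libraries held 147, 147 and 140 CPM. The groups did not overlap in either batch, with siSbsn lower, as was so for 4.22% of the loci tested. The highest of the 12 libraries was siControl batch 1 replicate 1. The log2-fold change was -0.53 ± 0.17 (SE, unadjusted p = 0.0107, edgeR q = 0.254), with p = 0.0167 from the exact permutation test, which follows from the lack of overlap. Without siControl batch 1 replicate 1 it was -0.33 (q = 0.221 from edgeR), and after correction for gene length it was -0.34. In batch 2 alone the log2-fold change was -0.35 (unadjusted p = 0.00094, q = 0.351 from edgeR). *Jund* lies at chr8:70697739-70700616 on the plus strand, where an antisense gene, *Gm11175*, overlaps it.

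*Junb*, a JUN protein that restrains growth and immune responses in skin, had 488 and 435 CPM in siControl of batch 1, against 332 CPM in the library labelled siSbsn batch 1 replicate 1 and 303 CPM in siSbsn batch 1 replicate 2. The siControl libraries of batch 2 held 325, 298 and 396 CPM, and its siSbsn libraries held 293, 284 and 288 CPM. The siSbsn libraries were again below all siControl libraries of their batch, as for 4.22% of the loci tested, although by little in batch 2. The log2-fold change was -0.35 ± 0.098 (SE, unadjusted p = 0.00478, edgeR q = 0.254), with p = 0.0167 from the exact permutation test, which follows from that separation. After correction for gene length the log2-fold change was -0.19. The row lies at chr8:84969622-84978748 and joins *Junb* with *Prdx2*, a peroxiredoxin gene on the opposite strand, and AK006748. *Rnaseh2a*, on the strand of *Junb*, also overlaps it. As in the *Fosl1* row, the genes cannot be told apart, so the values cannot be assigned to *Junb* alone. The length correction used the *Junb* transcript of 1809 bases. One further row that lists *Junb* among several loci, with 5 counts in all libraries together, was left out.

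*Jun*, the main partner of FOS proteins, differed little. It had 277 and 323 CPM in siControl of batch 1, against 246 CPM in the library labelled siSbsn batch 1 replicate 1 and 281 CPM in siSbsn batch 1 replicate 2. The siControl libraries of batch 2 held 405, 406 and 435 CPM, and its siSbsn libraries held 390, 402 and 398 CPM. The groups overlapped in batch 1 and not in batch 2, where 9.19% of the loci were lower in every siSbsn library. The log2-fold change was -0.11 ± 0.075 (SE, edgeR q = 0.365), with p = 0.1 from the exact permutation test. *Jun* lies at chr4:95049036-95052222 on the minus strand as 1 exon of 3189 bases, with the antisense gene *Junos* overlapping it.

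*Atf3*, a stress-induced factor that pairs with JUN proteins, had 28.5 and 33.9 CPM in siControl of batch 1, against 11.9 CPM in the library labelled siSbsn batch 1 replicate 1 and 20.8 CPM in siSbsn batch 1 replicate 2. The siControl libraries of batch 2 held 41.3, 48.1 and 52.6 CPM, and its siSbsn libraries held 37.6, 39.6 and 42.6 CPM. The groups did not overlap in batch 1, where 25.9% of the loci were lower in every siSbsn library, and overlapped in batch 2. The log2-fold change was -0.51 ± 0.17 (SE, unadjusted p = 0.0146, edgeR q = 0.254), with p = 0.0333 from the exact permutation test. It was -0.34 (q = 0.384 from edgeR) without the library labelled siSbsn batch 1 replicate 1 and -0.37 after correction for gene length. That library and no siRNA batch 1 replicate 1, at 11.6 CPM, held the lowest *Atf3* and *Fosl1* values of the 12. They also held the highest fibroblast and leukocyte marker sums, though not the highest value of every marker, and the highest *Krt1* and *Sbsn* levels. The part of these cell types, or of the *Krt1* and *Sbsn* differences, in the values was not tested. *Atf3* lies at chr1:191170297-191218039 on the minus strand.

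**Figure D3:**
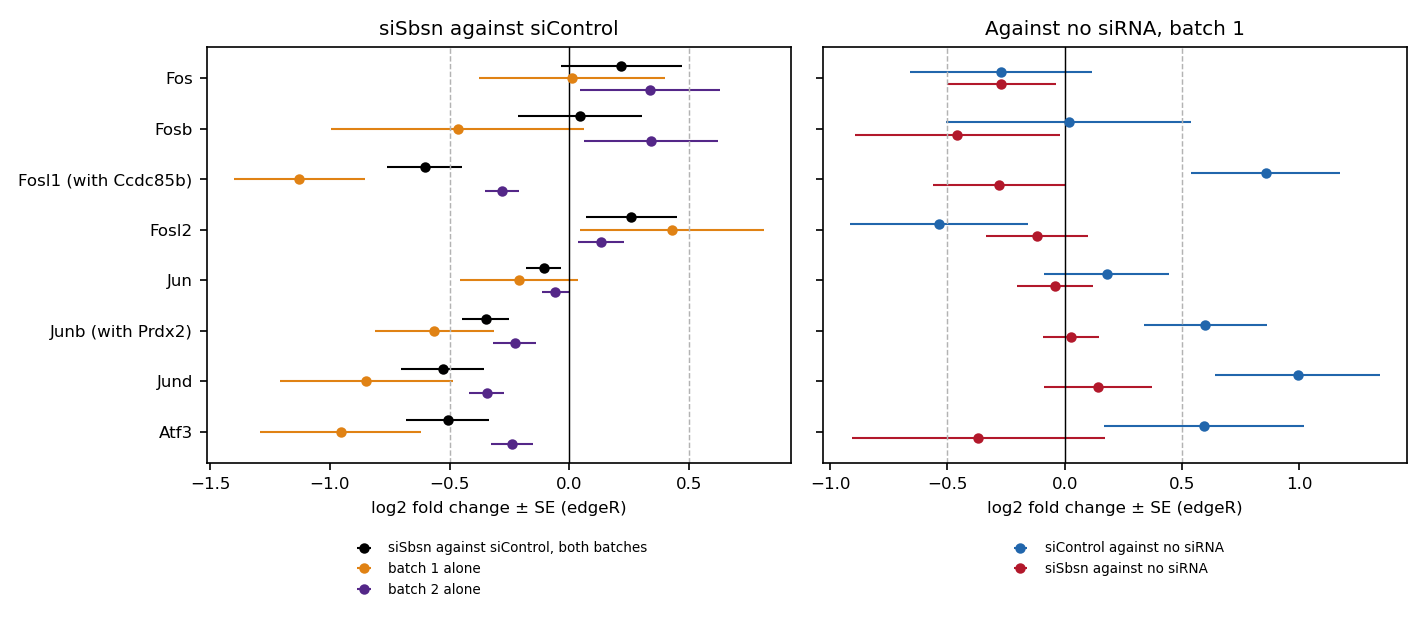
Log2-fold change with its standard error (edgeR) of each AP-1 member, on the left for siSbsn against siControl over both batches and in each batch, on the right for both treatments against no siRNA in batch 1; dashed lines mark 0.5 in either direction. *Fosl1*, *Junb*, *Jund* and *Atf3* lie below 0 in both batches, with the larger values in batch 1, as for *Fosl1* with -1.13 and -0.28.

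The 4 members with lower values in siSbsn were below 0 in both batches, and their values were larger in batch 1. In batch 1 alone *Fosl1* was at -1.13, *Atf3* at -0.96, *Jund* at -0.85 and *Junb* at -0.56 (q between 0.423 and 0.424 from edgeR). No member was called there, as was no other locus (0% of 12899), and 3 of the 8 had an unadjusted p under 0.05 with a lower value in siSbsn, against 4.79% of the loci. Leaving out the library labelled siSbsn batch 1 replicate 1 gave -0.94 for *Fosl1* and -0.59 for *Atf3* in batch 1, and leaving out siControl batch 1 replicate 1 gave -0.32 for *Jund*. Without siControl batch 1 replicate 2, *Fosl1* was at -1.28, *Jund* at -1.25 and *Fosl2* at 1.07 in batch 1. The siControl library then left was siControl batch 1 replicate 1, the one with the strongest trend on gene length. With no library left out and gene length corrected, *Jund* was at -0.51, *Atf3* at -0.72, *Junb* at -0.29 and *Fosl2* at 0.098 in batch 1. *Fosl1* was then at -1.33 and -0.85 at the lengths of the *Ccdc85b* and *Fosl1* transcripts. In batch 2 alone *Jund* was at -0.35, *Fosl1* at -0.28, *Atf3* at -0.24 and *Junb* at -0.23 (q between 0.351 and 0.483 from edgeR). All 4 had an unadjusted p under 0.05, against 5.69% of the loci with such a p and a lower value. No member was called, and 0.00774% of 12924 loci were, which is *Sbsn* alone. With 1 library left out in batch 2, *Jund* ranged from -0.40 to -0.29 and *Fosl1* from -0.32 to -0.22. *Atf3* then ranged from -0.32 to -0.17 and *Junb* from -0.30 to -0.12. For *Fosl1*, *Atf3* and *Junb* the value nearest 0 came without siControl batch 2 replicate 3. After correction for gene length in batch 2, *Jund* was at -0.26, *Atf3* at -0.16 and *Junb* at -0.14. *Fosl1* was at -0.30 and -0.20 at the lengths of the *Ccdc85b* and *Fosl1* transcripts. In batch 1, 4 members were lower in every siSbsn library than in every siControl library, against 25.9% of the loci, and in batch 2 also 4, against 9.19%. Among the members the largest difference between the batches was that of *Fosl1*, at 0.83 (batch 2 minus batch 1, log2 scale), with q = 0.265 from the edgeR interaction test of batch and treatment, which called 0% of the loci. DESeq2 gave 0.82 with q = 0.0195 for it, and called 1.34% of the loci. Leaving out the library labelled siSbsn batch 1 replicate 1 brought this difference to 0.64 (edgeR q = 0.520).

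**Figure D4:**
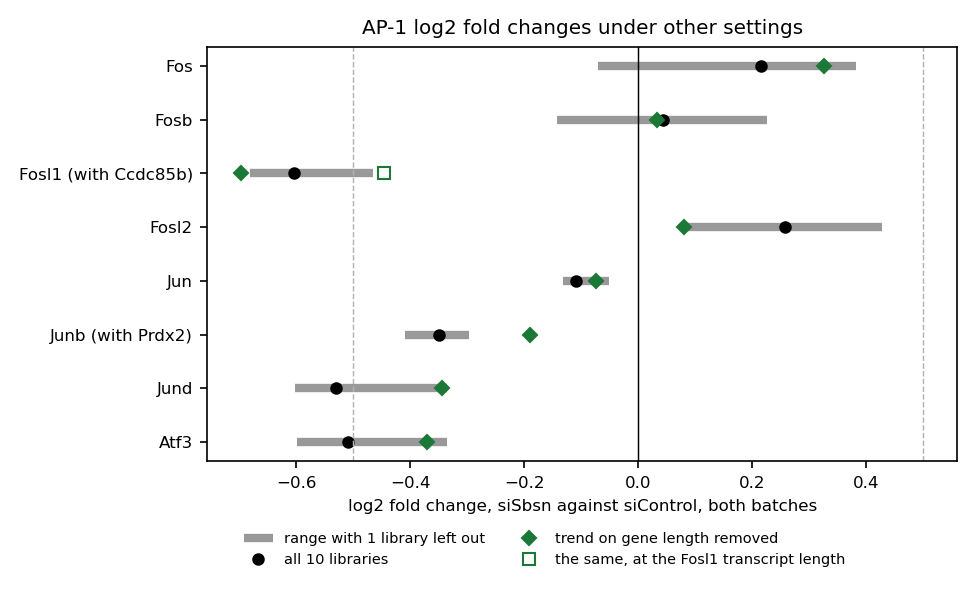
Log2-fold change of each AP-1 member between siSbsn and siControl over both batches with all 10 libraries (black), its range with 1 library left out (grey) and its value after correction for gene length (green). *Fosl1*, *Junb*, *Jund* and *Atf3* stay below 0 throughout, at -0.68 to -0.47, -0.41 to -0.30, -0.60 to -0.33 and -0.60 to -0.34 with 1 library left out, while *Fos* and *Fosb* change sign.

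The libraries without siRNA set both siRNA groups of batch 1 against cells that received none. *Fosl1* was at 32.2 and 52.5 CPM in these libraries, *Atf3* at 11.6 and 30.6 CPM, and *Junb* at 304 and 318 CPM. *Jund* was at 229 and 173 CPM, *Jun* at 242 and 299 CPM, and *Fosl2* at 549 and 693 CPM. For *Junb*, *Fosl1* and *Jund* every siControl library of batch 1 lay above these libraries, as it did for 27.6% of the loci. The log2-fold changes of siControl against no siRNA were 0.99 for *Jund*, 0.86 for *Fosl1*, 0.60 for *Junb* and 0.59 for *Atf3*, and 0 of 8 members were called (q of 0.401 or more from edgeR, 0% of 12959 loci called). The first 3 had unadjusted p-values under 0.05, against 5.36% of the loci with such a p and a higher value in siControl. *Fosl2* was at -0.54 in this comparison. Without siControl batch 1 replicate 1, *Jund* was at 0.46, *Junb* at 0.49 and *Fosl2* at -0.091. Without no siRNA batch 1 replicate 1, *Fosl1* was at 0.51 and *Atf3* at 0.029. The fitted deviation of siControl batch 1 replicate 1 on gene length was 0.50 at *Jund*, 0.45 at *Junb* and 0.40 at *Atf3*. At the *Ccdc85b* length used for the *Fosl1* row it was -0.29. In the no siRNA libraries it lay between -0.086 and 0.0076 for *Jund*, *Junb* and *Atf3*. These log2-fold changes keep this trend. Without siControl batch 1 replicate 2, which leaves siControl batch 1 replicate 1 alone in that group, *Jund* was at 1.38 and *Fosl2* at -1.19. For siSbsn against no siRNA the 8 members lay between -0.46 and 0.14, with 0 called and 0 at an unadjusted p under 0.05, and 0% of 13141 loci were called (edgeR). The comparisons with siSbsn and with no siRNA share the 2 siControl libraries of batch 1.

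Between batch 2 and batch 1, with treatment in the model, *Jun* rose by 0.52 on the log2 scale (q = 0.000395), *Atf3* rose by 0.93 (q = 0.00205) and *Jund* fell by 0.86 (q = 0.00218, all from edgeR). In all, 2 members were called higher in batch 2, where 16.4% of the loci were, and 1 was called lower, where 21.3% were. For *Jun*, the batch 1 libraries of all treatments lay between 242 and 323 CPM and those of batch 2 between 390 and 435 CPM. For *Atf3* they lay between 11.6 and 33.9 CPM and between 37.6 and 52.6 CPM, so for both genes every library of batch 2 lay above every library of batch 1, as it did for 14.6% of the loci. *Jund* overlapped, with 173 to 506 CPM in batch 1 and 140 to 197 CPM in batch 2. *Junb* was at -0.30 (q = 0.0254 from edgeR), short of the fold threshold, and the other 4 members lay between 0.060 and 0.32 (q between 0.134 and 0.861). *Fosl1* passed both thresholds only after correction for gene length at the length of its own transcript (0.51, q = 0.0061 from edgeR), and *Jun* stood at 0.49, short of 0.5, with the library labelled siSbsn batch 1 replicate 1 left out (edgeR q = 0.0015). The labels do not say what set the batches apart.

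Other genes of the pathway were read from 4 lists. Among 12 further bZIP partners (ATF2, MAF, BATF and JDP2 genes), 9 were tested between siSbsn and siControl over both batches and none was called. *Maff*, a small MAF protein, was at -0.35 and *Maf* at 0.44 (edgeR q = 0.254 and q = 0.259). Of 20 genes of the MAP kinase modules and the ternary complex factors that relay signals to *Fos* and *Jun*, 19 were tested and none was called. The kinase gene *Mapk11* was at -0.40 and *Elk4*, a ternary complex factor, at 0.49. Of 20 other immediate early genes all were tested and none was called. *Ier3* was at -0.65 and *Gadd45b*, a stress gene, at -0.68 (both q = 0.254 from edgeR). An unadjusted p under 0.05 was found for 3 of 9, 5 of 19 and 9 of 20 genes of these lists, and for 19.2% of all loci. The medians were 0.13, 0.10 and -0.086, against 0.0055 for all loci. In batch 1 alone *Maff* was at -0.48, *Maf* at 0.97, *Mapk11* at -0.52, *Elk4* at 0.74, *Ier3* at -1.11 and *Gadd45b* at -1.35. In batch 2 alone, in the same order, they were at -0.29, 0.091, -0.34, 0.31, -0.36 and -0.25.

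The fourth list held 17 genes known as AP-1 targets in keratinocytes or other cells, of which 16 were tested and none was called between siSbsn and siControl. Their median was -0.11, and 5 of 16 had an unadjusted p under 0.05, against 19.2% of all loci. Of these 5, *Plaur*, *Mmp9*, *Mmp13* and *Hbegf* were lower in siSbsn. *Flg* was higher, at 1.13 (edgeR q = 0.257), the largest change of the list. It was at 2.08 in batch 1 alone and at 0.53 in batch 2 alone. *Plaur*, the urokinase receptor gene, was at -0.64 ± 0.13 (SE, unadjusted p = 0.000517, edgeR q = 0.254) and *Mmp9*, a gelatinase gene, at -0.43. In batch 1 and batch 2 alone *Plaur* was at -0.93 and -0.45, and *Mmp9* was at -0.44 in each. Between the batches the same list was called in 1 direction. Lower in batch 2 were 12 of 16 targets, where 21.3% of all loci were, and none was higher, with a median of -1.42. *Mmp9* fell by 2.43, *Ivl* (involucrin) fell by 2.32, *Tgm1* (a transglutaminase) fell by 1.55, *Lor* (loricrin) fell by 1.82 and *Plaur* fell by 1.06 on the log2 scale (q of 0.000374 or less from edgeR). The 4 that were not called were *Ccnd1*, *Vegfa*, *Cd44* and *Flg*. Of the 20 immediate early genes, 7 were called higher and 5 lower in batch 2, where 16.4% and 21.3% of all loci were. Among them *Nr4a2* was at 1.39 and *Egr2* at -2.64. Of the 19 MAP kinase genes tested 6 were called lower and none higher. Of the 9 bZIP partners tested 3 were called higher (*Atf2*, *Atf7* and *Creb5*) and none lower. The same 16.4% and 21.3% of all loci stand beside these counts.

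For each member, the loci with the most similar course over the 12 libraries were looked for by the root mean square difference of log2(CPM + 0.5), centred within each batch. For *Fosl1* they were Fkbp11 (0.087) and Smg9 (0.0942), and for *Atf3* Chka (0.0743) and Tulp2+Ppp1r15a (0.0799). For *Jund* they were Nme2 (0.0703) and Ocel1 (0.0766), and for *Junb* Nbl1 (0.0451) and Gch1+AK162488 (0.0475). The course of *Fosl2* was nearest to that of 2310068J16Rik+Larp4 (0.0339) and Pdzd8 (0.0394), and that of *Jun* to Zfp212 (0.0343) and Stx3+AK044380+AK137098+Mrpl16 (0.0355). For the low genes these loci were Gcnt1 (0.193) and Pik3cg (0.194) for *Fos*, and Zbtb3 (0.084) and Clec11a (0.0972) for *Fosb*. Among the members themselves, *Fosl1* and *Atf3* were each the nearest of the other, at 0.205, and so farther apart than from the loci named for them. These values are a description over the same 12 libraries, which differ in their trend on gene length.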

How the data were processed

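The authors aligned the reads to mm10 with STAR, kept uniquely aligned reads and deposited whole-number counts per locus of the UCSC KnownGene annotation, without normalization. Overlapping genes share a locus, and 4802 of 21947 loci carry several names. Rows whose names are joined by a comma were left out. Locus starts matched GENCODE gene starts for 37.4% of loci after adding 1 and for 3.64% as given, so starts were read as counted from 0, and row coordinates are printed after adding 1. They are those of the counted rows and can differ from the GENCODE gene. Counts were scaled by TMM and tested by the quasi-likelihood method of edgeR 4.0.16 in R 4.3.3 for the loci that filterByExpr kept, on treatment plus batch, and q-values are Benjamini-Hochberg values over all loci tested. Standard errors (SE) were derived from the log2-fold change and the F statistic. DESeq2 1.42.0, limma 3.58.1, other size factors, no filter, each library left out, the replicate block and a length correction (a lowess trend of log2 CPM on transcript length, found for 95.24% of loci) were alternatives. The tests were tried on simulated data. The members, the lists and the rule for named genes (the members, *Sbsn*, called list genes or the 2 with the smallest p, and 2 nearest loci per member) were chosen with earlier results of these data known. Genes of the lists that were called between batches, and *Krt1*, *Col1a1*, *Dcn*, *Lum*, *Lyz2*, *Cd74*, *Cd3e*, *Cd207*, *Ccnd1*, *Vegfa*, *Cd44* and *Flg*, were named after their values were seen. In all pairs of libraries of a group the counts differed beyond sampling noise (4.47 to 204 for chi-square over its degrees of freedom), so none was counted as a repeat.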

Additional observations from a re-analysis of the deposited data

How the results depend on the processing

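*Fosl1*, *Junb*, *Jund*, *Atf3* and *Jun* stayed below 0 between siSbsn and siControl over both batches under every alternative run, and 0 members were called with any 1 library left out. DESeq2 called 1 member there, among 92 loci without and 79 with its beta prior, 1 in batch 1 among 151 loci and 1 for the interaction among 165. Without a filter on low counts edgeR called 1 in batch 1, among 478 loci. With 1 library left out the number called ranged from 0 to 3 in batch 1, from 0 to 3 for siControl against no siRNA, from 0 to 3 for the interaction and from 2 to 3 between batches. In the first 3 of these comparisons the 3 came without siControl batch 1 replicate 2, which leaves 1 library in that arm, assumed to vary like the others, and there 25.5%, 24.1% and 37.8% of all loci were called. For the interaction 2 were called without siSbsn batch 1 replicate 2, among 3.37% of all loci. Without siControl batch 1 replicate 2, the library left in that arm is siControl batch 1 replicate 1, which had its own trend on gene length. The cause of these calls was not tested.

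In batch 1 the groups share the numbers 1 and 2, which mark no shared culture in the labels. Number 1 minus number 2 correlated across loci by 0.379 to 0.805 between groups. With the number as a replicate block edgeR called 3 members between siSbsn and siControl in batch 1 (*Fosl1* at -1.13, *Jund* at -0.79 and *Atf3*) and 2 between siControl and no siRNA (*Fosl1* at 0.89 and *Jund* at 0.94), among 1808 of 12899 and 1135 of 12959 loci called, and 0 members over both batches.

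The sign changed with 1 library left out for these members. Over both batches *Fos* ranged from -0.071 to 0.38 and *Fosb* from -0.14 to 0.23. In batch 1 *Fos* ranged from -0.31 to 0.41 and *Fosl2* from -0.030 to 1.07, and in batch 2 *Fos* from -0.14 to 0.54. For the interaction *Fos* ranged from -0.17 to 0.65, *Fosl2* from -1.02 to 0.16, *Jun* from -0.017 to 0.24 and *Jund* from -0.023 to 0.81. For siControl against no siRNA *Fos* ranged from -0.68 to 0.041 and *Fosb* from -0.39 to 0.36. *Fosb* was there at -0.0055 with DESeq2 and at -0.0082 with its size factors. For siSbsn against no siRNA *Fosl1* ranged from -0.59 to 0.12, *Fosl2* from -0.36 to 0.091, *Jun* from -0.18 to 0.12, *Junb* from -0.035 to 0.090, *Jund* from -0.12 to 0.36 and *Atf3* from -0.91 to 0.50. Between batches *Fosb* ranged from -0.094 to 0.30. The length correction at the length of the *Fosl1* transcript, and outside the comparison over both batches, was chosen after seeing the data, as was the length of the row for *Jund*.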
